A study of Saccharomyces cerevisiae with 8 samples.

Results

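The genes described here are 34 transcripts of the general and the osmotic stress response of budding yeast, Saccharomyces cerevisiae, out of 5449 yeast genes read on the array. They were taken by name as known targets of the transcription factors Msn2 and Msn4 and of the kinase Hog1, with the factors and the kinase themselves, leaving out the enzymes of storage carbohydrate metabolism. All 34 had a probe set of their own, none shared with another transcript. Total RNA came from 4 cultures expressing Kir2.1, a mammalian inwardly rectifying potassium channel, from the plasmid pRS416TEF-Kir2.1-HA, and from 4 vector control cultures carrying pRSGPD426. The groups therefore differ in plasmid as well as in the channel, and the label of every control array, but of none of the Kir2.1 arrays, marks it as a re-analysis, so that plasmid, handling and channel cannot be told apart. The plasmid name pRS416TEF is that of vectors with the constitutive promoter of a translation elongation factor gene, and the Kir2.1 transcript itself was not analysed here. No strain background or chromosomal genotype is given. All cultures grew at 26 °C in selective medium to mid log phase, and the series calls its replicates biological.

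Msn2 and Msn4 are zinc finger factors that enter the nucleus when protein kinase A activity drops, as on heat, nutrient limitation or oxidative stress, and switch on a broad set of protective and metabolic genes. Hog1 is the mitogen-activated kinase of the high osmolarity pathway. It acts on transcription through Hot1, Sko1 and also Msn2 and Msn4, and it raises the cell's glycerol, the solute that balances a salty or sugary medium. Many of the same target genes also respond to slower growth.

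Each level is given as a log2 distance from the array's median gene, computed from the scores in the deposited table, and every difference is the Kir2.1 mean less the vector control mean. Over all genes, several arrays were most like an array of the other group. Vector control replicate 1 was most like Kir2.1 replicate 3 (Pearson r over genes 0.996) and less like the other controls (0.979 to 0.985), and Kir2.1 replicate 2 was most like vector control replicate 3 (0.997) and less like the other Kir2.1 arrays (0.971 to 0.984). Kir2.1 replicate 4 was most like vector control replicate 4 (0.989), and less like the other Kir2.1 arrays (0.971 to 0.984). Kir2.1 replicate 3 was also most like a control, vector control replicate 1 (0.996), narrowly ahead of Kir2.1 replicate 1 (0.995). Its r with Kir2.1 replicates 2 and 4 was 0.971. Between 84.9% and 88.6% of yeast genes lay above the background of an array, taken as the 95th percentile of its fission yeast (S. pombe) probe sets. Of the 34 stress genes, 30 lay above it on all 8 arrays and 32 on at least 4. SIP18 and HOT1 were not above background on any array, so their differences enter the counts and are not read as a direction. Each array reads a whole culture, so a large change in some cells and a small change in all of them cannot be told apart.

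No stress gene passed the test between the groups. Of the 34, limma called 0 at an adjusted p under 0.05, as it did of all 5449 genes (0%), and the smallest adjusted p among the 34 was 0.551. At an unadjusted p under 0.05 there were 2 (5.88%), against 8.35% of all genes. These were HXK1 and HOR7, both higher with Kir2.1 (6.37% of all genes), and 0 of the 34 were lower (1.98% of all genes). In 1 of the 34, HOR7, the groups did not overlap, against 6.59% of all genes (5.05% with Kir2.1 above, 1.54% below). The Kir2.1 mean exceeded the control mean in 29 of the 34 stress genes, against 58.7% of all genes, and the median difference was 0.17, against 0.03 over all genes. Without SIP18 and HOT1 it did so in 27 of 32, with a median of 0.17. With no centring of the arrays, which lowers every difference by the same amount (the median gene then differed by -0.13), 21 of the 34 had the higher Kir2.1 mean and the median was 0.04. Over all genes the Kir2.1 mean was then higher in 1165 of 5449, with a median difference of -0.10. After quantile normalization, 27 of the 34 were higher with a median of 0.09, against 2660 of 5449 genes and -0.003. The counts at an unadjusted p under 0.05 also turned with the scaling. With no centring, 0 of the 34 were higher and 2 lower (FPS1 and SKO1), beside 6 and 999 of all genes. With centring on the 75th percentile the same 2 were lower and 0 higher, beside 239 and 138 of all genes. After quantile normalization 1 was lower (SKO1) and 0 higher, beside 145 and 119. With no centring the groups separated in 2 of the 34, both below (661 of all genes).

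The stress genes spread widely between cultures of the same group. The median standard deviation within a group was 0.33 on the log2 scale over the 34 genes and 0.13 over all genes, and in 28 of the 34 it was larger than the difference between the groups, as it was in 71.9% of all genes. Highest and lowest array differed by a median of 1.81-fold, against 1.32-fold over all genes, and by more than 2-fold in 13 of the 34 genes, against 6.13% of all genes. The heat map of all 34 genes shows where this spread lies. Kir2.1 replicates 1 and 3 and vector control replicate 1 each lay above the gene's own 8-array median in 30 of the 34 genes, and Kir2.1 replicate 4 in 25. Kir2.1 replicate 2 did so in 8 and vector control replicates 2, 3 and 4 in 6, 2 and 5. Over all genes this share ran from 40.3% on vector control replicate 3 to 55.6% on Kir2.1 replicate 1. In 17 of the 34 the 3 highest values were those of Kir2.1 replicates 1 and 3 and vector control replicate 1, a set of arrays picked after seeing the values, against 16.7% of all genes.

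**Figure D1:**
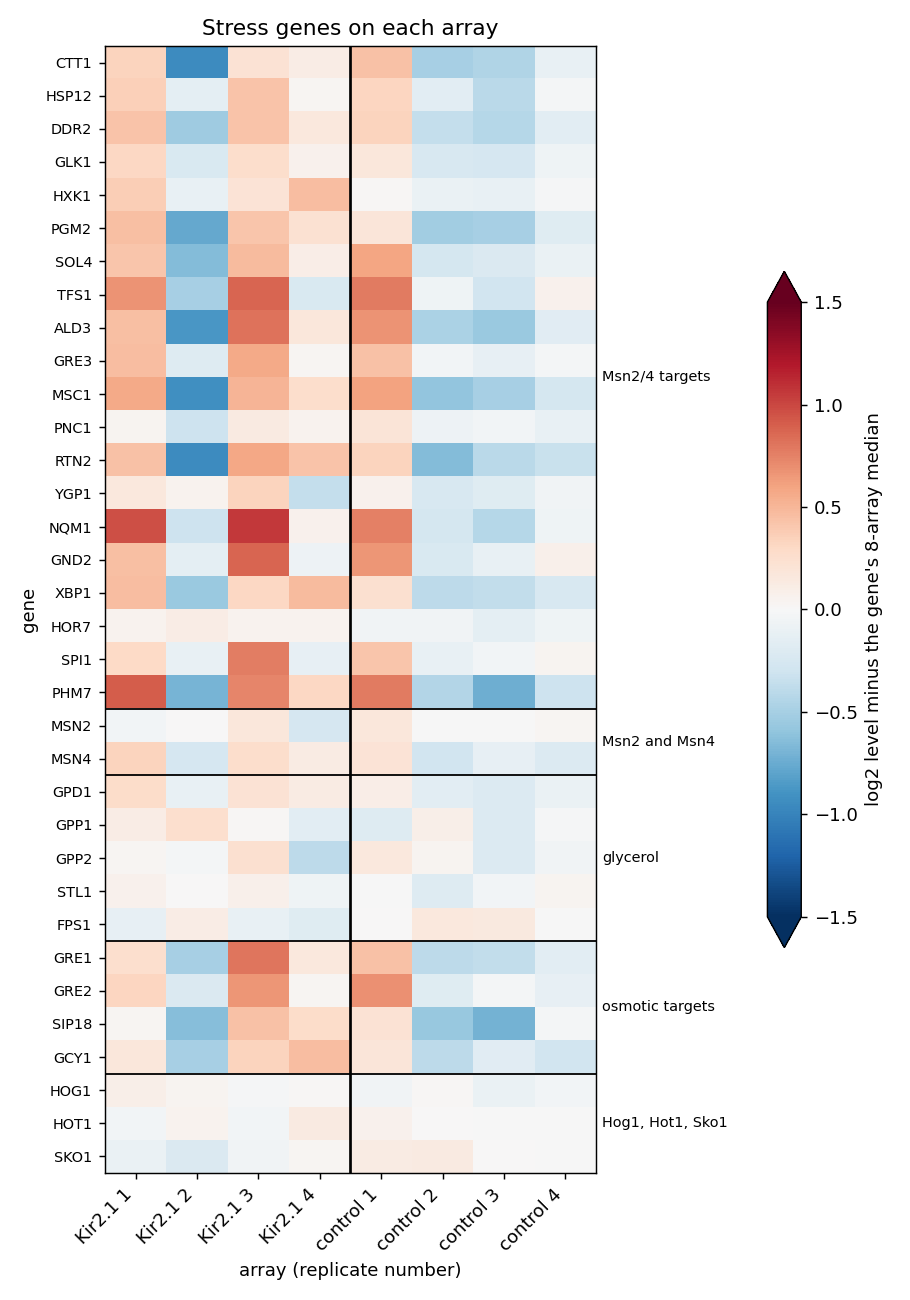
Heat map of the 34 stress genes (rows, grouped by role) on the 8 arrays (columns, Kir2.1 left of vector control); colour is the log2 level minus the gene's own median over the 8 arrays. Red columns for Kir2.1 replicates 1 and 3 and control replicate 1 run through the Msn2/4 and osmotic targets, while the rows of HOG1, HOT1 and HOR7 stay near white.

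The 20 Msn2/4 targets and the 4 osmotic targets, SIP18 included, spread most. The median within-group standard deviation was 0.42 in each. Highest and lowest array differed by a median of 2.09-fold in the Msn2/4 targets and 2.08-fold in the osmotic targets. Among the Msn2/4 targets, Kir2.1 replicates 1 and 3 lay above the gene's own median in 20 of 20 and vector control replicate 1 in 19. Kir2.1 replicate 4 did so in 16, Kir2.1 replicate 2 in 2 and vector control replicates 2, 3 and 4 in 0, 0 and 3. Each array did so in 40.3% to 55.6% of all genes. Of the 20, 19 averaged higher with Kir2.1, with a median difference of 0.22 and single differences between -0.01 and 0.49, and 0 passed. Within the control group, replicate 1 stood above all of replicates 2 to 4 in 19 of 20 targets, against 40.2% of all genes, by a median of 0.61 over their mean. Within the Kir2.1 group, replicate 2 was the lowest in 17 of 20, against 31% of all genes, by a median of -0.91 from the mean of the other 3, and in 12 of the 20 it was also below vector control replicates 2 to 4, against 28% of all genes. Each of these gaps inside a group was larger than the difference between the groups in 18 of the 20 targets. The 2 arrays were singled out after seeing the values and also enter the group means. The share of all genes with such gaps was not computed.

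PHM7, a membrane protein gene, had the largest standard deviation over the 8 arrays of all 34. Its level was 0.35, -1.27, 0.17 and -0.25 in Kir2.1 replicates 1 to 4, against 0.21, -1.01, -1.29 and -0.88 in vector control replicates 1 to 4. The groups overlapped over nearly their whole range, with the lowest Kir2.1 array next to the lowest control and the highest control between the highest Kir2.1 arrays. The difference was 0.49 (SE 0.41, 95% interval -0.45 to 1.44, limma adjusted p = 0.731). ALD3, a cytosolic aldehyde dehydrogenase gene, ran at -0.21, -1.53, 0.15 and -0.49 in the Kir2.1 arrays, against 0.01, -1.13, -1.22 and -0.83 in the controls. Both its highest and its lowest array were Kir2.1 cultures, 3.22-fold apart, and the difference was 0.27 (SE 0.39, adjusted p = 0.825).

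MSC1, named for meiotic sister chromatid recombination, had levels of 1.81, 0.32, 1.76 and 1.51 in the Kir2.1 arrays, against 1.85, 0.65, 0.75 and 0.98 in the controls. The highest array was a control and the lowest a Kir2.1 culture, and the difference was 0.29 (SE 0.38, adjusted p = 0.801). NQM1, a transaldolase gene, stood at -0.75, -2.02, -0.66 and -1.66 in the Kir2.1 arrays, against -0.97, -1.99, -2.14 and -1.78 in the controls. It was above background in 3 of 4 Kir2.1 arrays and 1 of 4 controls, so part of its spread may be larger than shown, and its difference was 0.45 (SE 0.36, adjusted p = 0.719).

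XBP1 encodes a transcriptional repressor induced by stress. Its levels were -0.93, -1.96, -1.08 and -0.92 in the Kir2.1 arrays, against -1.16, -1.79, -1.77 and -1.64 in the controls. On 3 Kir2.1 arrays it stood above every control, and on replicate 2, where it was not above background, it was below every control. The difference was 0.36 (SE 0.25, adjusted p = 0.711).

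HXK1, a hexokinase gene, differed in pattern from the genes above. It read 3.65, 3.18, 3.49 and 3.75 in the Kir2.1 arrays, against 3.30, 3.19, 3.17 and 3.26 in the controls. Here vector control replicate 1 lay close to the other controls, Kir2.1 replicate 4 was the highest array, and Kir2.1 replicate 2 fell among the controls. The difference was 0.28 (SE 0.12, unadjusted p = 0.0399, adjusted p = 0.586).

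HOR7, a small gene first described as responsive to high osmolarity, had the least spread of the targets. Its level was 4.45, 4.51, 4.46 and 4.46 in the Kir2.1 arrays, against 4.35, 4.35, 4.25 and 4.34 in the controls. No control reached the lowest Kir2.1 array, with means of 4.47 ± 0.03 and 4.32 ± 0.05 (SD, n = 4 each). The difference of 0.15 (SE 0.05, unadjusted p = 0.0185, adjusted p = 0.551) depended on the scaling, and was -0.02 after quantile normalization.

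**Figure D2:**
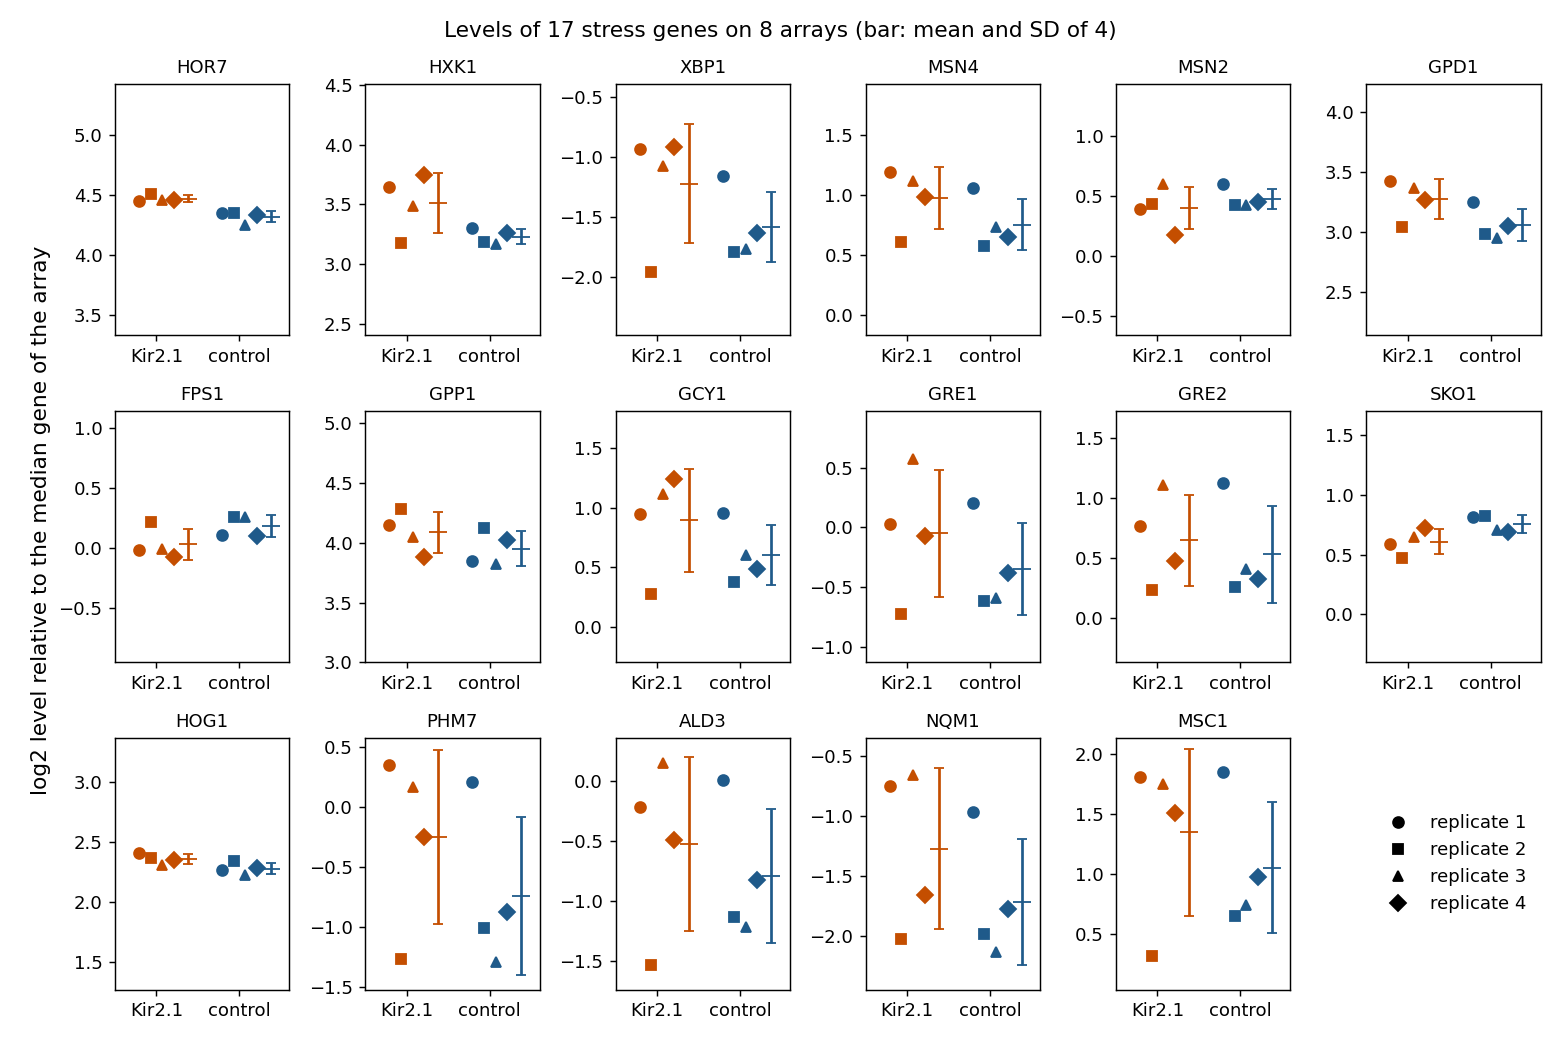
Log2 distance from the array's median gene for 17 stress genes, with Kir2.1 (orange) left of vector control (blue), 1 marker shape per replicate number, and a bar for the mean and SD of the 4 arrays; every panel spans the same log2 range. PHM7, ALD3, NQM1 and MSC1 spread widely in both groups, while the points of HOR7 and HOG1 lie close together.

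The other 13 Msn2/4 targets are given by their spread and difference. CTT1, the cytosolic catalase gene often used as the readout of this response, spanned 2.60-fold over the 8 arrays, with a difference of 0.09 (SE 0.31, adjusted p = 0.932). Its means were 0.34 ± 0.59 in the Kir2.1 arrays and 0.26 ± 0.43 in the controls (SD, n = 4 each). HSP12, a small heat shock protein gene that is another common readout, spanned 1.77-fold with a difference of 0.23 (SE 0.18, adjusted p = 0.711). DDR2, a gene of the multistress response, spanned 1.95-fold with a difference of 0.27 (SE 0.24).

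Among the genes of carbon and redox metabolism, the glucokinase gene GLK1 spanned 1.48-fold and the phosphoglucomutase gene PGM2 2.33-fold, with differences of 0.20 and 0.33. SOL4 and GND2, both of the oxidative pentose phosphate pathway, spanned 2.37-fold and 2.14-fold with differences of 0.09 and 0.18. The aldose reductase gene GRE3 spanned 1.70-fold with a difference of 0.16. PNC1, the nicotinamidase gene, spanned 1.42-fold and was the only target that averaged lower with Kir2.1 (-0.01, 95% interval -0.26 to 0.25).

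TFS1, an inhibitor of the vacuolar carboxypeptidase Y, spanned 2.59-fold and RTN2, a reticulon-like gene of the endoplasmic reticulum, 2.87-fold, with differences of 0.09 and 0.39. YGP1 and SPI1, which encode glycoproteins of the cell surface, spanned 1.62-fold and 1.85-fold with differences of 0.15 and 0.13. The adjusted p of these 13 genes lay between 0.711 and 0.985.

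Kir2.1 replicate 4 divided the targets. In 16 of the 20 it lay above all of vector control replicates 2 to 4, against 45.4% of all genes, and in HXK1 and XBP1 it was the highest of the 8 arrays. YGP1, SPI1, TFS1 and GND2 were the exceptions. YGP1 was 3.30 on that array and SPI1 2.86, both below vector control replicates 2 to 4 (3.42 to 3.60 and 2.87 to 3.02). These 2 of 20 compare with 35.3% of all genes below those controls on that array. TFS1 was 1.70 there, within the range of vector control replicates 2 to 4 (1.64 to 1.99) and well below Kir2.1 replicates 1 and 3 (2.60 and 2.80). GND2 was -0.12 there, within the range of the same controls (-0.27 to 0.02).

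Of the factors themselves, MSN4 averaged higher with Kir2.1 and MSN2 lower, and the contrast between them was not tested. In both, vector control replicate 1 was above replicates 2 to 4, against 40.2% of all genes. MSN4, whose own transcript is known to rise on stress, read 1.19, 0.61, 1.12 and 0.98 in the Kir2.1 arrays, against 1.06, 0.57, 0.73 and 0.65 in the controls. Its 3 highest arrays were Kir2.1 replicates 1 and 3 and vector control replicate 1, as for most targets, and the difference was 0.22 (SE 0.15, adjusted p = 0.709). MSN2, whose transcript is known as nearly constant, read 0.39, 0.43, 0.60 and 0.17 in the Kir2.1 arrays, against 0.60, 0.42, 0.42 and 0.45 in the controls. Kir2.1 replicate 1, high for nearly every target, was below all controls for MSN2, and the difference was -0.08 (SE 0.09, adjusted p = 0.794).

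Of the 4 osmotic targets, GRE1 and GRE2 had their 3 highest values on Kir2.1 replicates 1 and 3 and vector control replicate 1, as did 14 of the 20 Msn2/4 targets and 0 of the 5 glycerol genes. GRE1, a hydrophilin gene, read 0.03, -0.73, 0.57 and -0.07 in the Kir2.1 arrays, against 0.21, -0.61, -0.59 and -0.38 in the controls. Kir2.1 replicate 2 was below every control and vector control replicate 1 above 3 of 4 Kir2.1 arrays, with a difference of 0.30 (SE 0.28, adjusted p = 0.753). GRE2, a methylglyoxal reductase gene, read 0.77, 0.23, 1.11 and 0.48 in the Kir2.1 arrays, against 1.13, 0.26, 0.41 and 0.33 in the controls. Its highest array was a control, and the difference was 0.12 (SE 0.24, adjusted p = 0.866).

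GCY1, which encodes a glycerol dehydrogenase, read 0.95, 0.28, 1.11 and 1.24 in the Kir2.1 arrays, against 0.96, 0.38, 0.60 and 0.48 in the controls. Kir2.1 replicate 4 was the highest array and Kir2.1 replicate 2 the lowest, with a difference of 0.29 (SE 0.21, adjusted p = 0.711). All of GRE1, GRE2 and GCY1 had a within-group standard deviation (0.46, 0.39 and 0.35) larger than their difference. In each of these genes vector control replicate 1 was above replicates 2 to 4, against 40.2% of all genes. Kir2.1 replicate 2 was the lowest Kir2.1 array in each, against 31% of all genes. SIP18, a hydrophilin gene strongly induced by salt, stayed within the background on all 8 arrays, so its order of arrays is not read.

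The 5 genes of glycerol production and transport spanned 1.20-fold to 1.56-fold over the 8 arrays, with a median of 1.37-fold, against 1.32-fold over all genes. GPD1, whose glycerol 3-phosphate dehydrogenase starts glycerol synthesis, read 3.42, 3.04, 3.37 and 3.27 in the Kir2.1 arrays, against 3.25, 2.98, 2.95 and 3.04 in the controls. On 3 Kir2.1 arrays it stood above every control and on replicate 2 it fell among them, with a difference of 0.22 (SE 0.10, adjusted p = 0.617). GPP1, a glycerol 3-phosphatase gene, read 4.14, 4.28, 4.04 and 3.88 in the Kir2.1 arrays, against 3.84, 4.12, 3.82 and 4.02 in the controls. Its order did not follow that of the targets, since Kir2.1 replicate 2 was the highest array and vector control replicate 1 among the lowest. The difference was 0.14 (SE 0.10, adjusted p = 0.711).

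FPS1, the plasma membrane channel that lets glycerol out of the cell, read -0.01, 0.22, -0.01 and -0.07 in the Kir2.1 arrays, against 0.11, 0.26, 0.26 and 0.10 in the controls. On 3 Kir2.1 arrays it lay below every control and on replicate 2 it fell among them, a difference of -0.15 (SE 0.08, adjusted p = 0.658). GPP2, the paralogue of GPP1 that is known as the form induced by osmotic stress, differed by -0.02 (SE 0.14, adjusted p = 0.958). STL1, the glycerol and proton symporter gene that Hog1 and Hot1 induce steeply in salt, was above background on all 8 arrays and spanned 1.20-fold, with a difference of 0.07 (95% interval -0.09 to 0.22, adjusted p = 0.760).

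The kinase and its factors spanned 1.13-fold to 1.27-fold over the 8 arrays. HOG1 read 2.41, 2.36, 2.31 and 2.34 in the Kir2.1 arrays, against 2.26, 2.33, 2.22 and 2.28 in the controls. The groups overlapped narrowly, and the difference of 0.08 (SE 0.05, adjusted p = 0.707) was -0.05 with no centring. SKO1, whose product represses osmotic genes until Hog1 modifies it, read 0.59, 0.47, 0.64 and 0.72 in the Kir2.1 arrays, against 0.81, 0.82, 0.70 and 0.69 in the controls. On 3 Kir2.1 arrays it was below every control, with a difference of -0.15 (SE 0.07, adjusted p = 0.617). HOT1 was within the background on all 8 arrays.

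**Figure D3:**
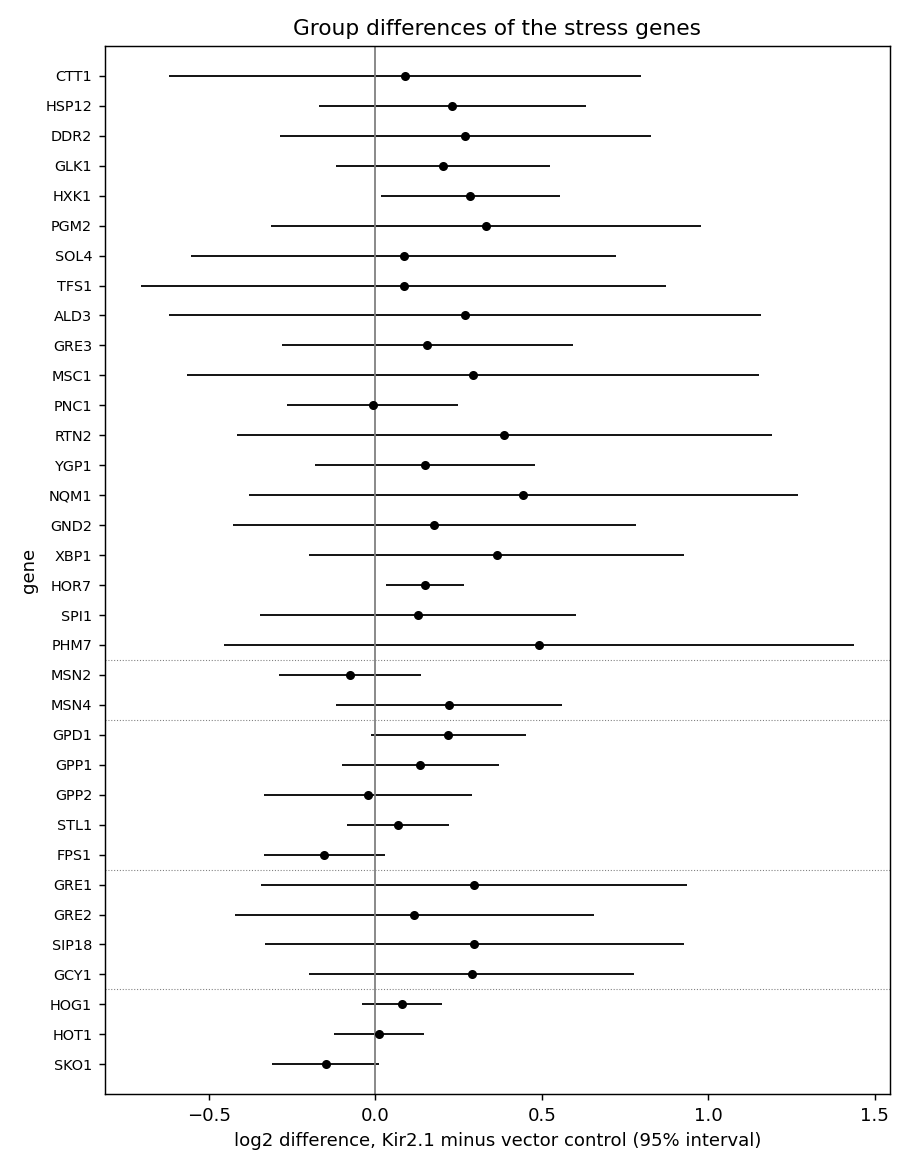
Log2 difference, Kir2.1 minus vector control, of the 34 stress genes (points) with 95% intervals from limma (bars), ordered by role from the Msn2/4 targets at the top to HOG1, HOT1 and SKO1 at the bottom. The intervals of 32 genes include 0, HXK1 and HOR7 being the exceptions before adjustment; SIP18 and HOT1 were within the background.

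How large a group difference could have gone unseen differs between the roles. The 95% interval, without adjustment for the number of genes, stayed inside a 2-fold change for 29 of the 34 genes, beside 5306 of all 5449 genes. The 29 include SIP18 and HOT1, which lay within the background, so their intervals do not bound a change in those genes. The other 5, ALD3, MSC1, RTN2, NQM1 and PHM7, are all Msn2/4 targets. The median half-width of the interval was 0.58 for the Msn2/4 targets, 0.59 for the osmotic targets and 0.23 for the glycerol genes, against 0.21 over all genes.

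The count of 0 rests on giving every array equal weight. With limma's array weights, which were lowest for Kir2.1 replicates 2 and 4 and vector control replicate 1 (0.231, 0.267 and 0.372), 18 of the 34 genes were called higher in the Kir2.1 arrays and 0 lower, beside 1017 and 718 of all genes. Leaving out Kir2.1 replicate 2 together with vector control replicate 1, a choice made from their values, gave 14 higher and 0 lower among the 34, beside 326 and 182 of all genes. Because those arrays were picked for lying with the other group, these 14 calls are a description of the other 6 arrays. The array weights were estimated from the same group fit, which lowers arrays lying away from their own group. The 18 calls are therefore a description too. Without Kir2.1 replicates 1 and 3 and vector control replicate 1, only Kir2.1 replicates 2 and 4 and vector control replicates 2 to 4 remained. That is too few arrays for a count of 0 to be set against the 14 calls. In that setting 0 of the 34 were called, and the median difference of the targets was 0.12. Leaving out single arrays called 0 each time and moved that median between 0.13 (without vector control replicate 3) and 0.36 (without Kir2.1 replicate 2).

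Other genes of these pathways were read for comparison. Upstream of Hog1 lay the list of sensors, adaptors and kinases from SLN1 to PBS2. Of its 15 genes, 10 averaged higher with Kir2.1 and 0 passed, with a median difference of 0.05 (58.7% and 0.03 over all genes). With no centring this was 3 of 15, with a median of -0.08, beside 1165 of all 5449 genes and -0.10. CLA4, a p21-activated kinase gene, and SSK22, which encodes a kinase at the top of the pathway's cascade, differed by -0.22 (SE 0.11, adjusted p = 0.635) and 0.25 (SE 0.13, adjusted p = 0.680). Among the phosphatases and other partners of Hog1, 13 of 14 averaged higher with Kir2.1, 0 passed and the median difference was 0.17 (58.7% and 0.03 over all genes). With no centring this was 9 of 14, with a median of 0.04, beside 1165 of all 5449 genes and -0.10. PTC3, a phosphatase gene that acts on Hog1, read 1.55, 1.44, 1.49 and 1.42 in the Kir2.1 arrays, against 1.29, 1.20, 1.18 and 1.20 in the controls. The groups did not overlap, as in 6.59% of all genes, and the difference was 0.26 (SE 0.06, limma unadjusted p = 0.00147, adjusted p = 0.551). With no centring the groups overlapped in every gene of this list, PTC3 included. YPK1, a protein kinase gene, differed by 0.23 (SE 0.08, adjusted p = 0.551).

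The protein kinase A pathway and other regulators of Msn2 and Msn4 made up 22 genes. Of these, 19 averaged higher with Kir2.1, 0 passed, and the median difference was 0.12 (58.7% and 0.03 over all genes). With no centring this was 11 of 22, with a median of -0.01, beside 1165 of all 5449 genes and -0.10. PSR2, a phosphatase gene, differed by 0.19 (SE 0.06, adjusted p = 0.551), and BMH2, which encodes a phosphoprotein-binding adaptor, by 0.17 (SE 0.08, adjusted p = 0.606). The within-group standard deviation of these regulators had a median of 0.11, against 0.42 for the Msn2/4 targets, so the regulators' transcripts spread less between cultures than those of the targets.

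Gene lists outside the stress response also varied between the arrays. Storage carbohydrate enzymes, which share Msn2 and Msn4 as regulators, had median levels of 1.34, 0.43, 1.38 and 1.55 in Kir2.1 replicates 1 to 4, against 1.23, 0.56, 0.83 and 0.74 in vector control replicates 1 to 4. Kir2.1 replicates 1, 3 and 4 and vector control replicate 1 were the 4 highest arrays, as in the medians of the Msn2/4 targets. The lists differed on Kir2.1 replicate 4, the highest array for the storage enzymes. For the Msn2/4 targets it stood at 1.89, next to vector control replicate 4 at 1.88. Ribosome biogenesis genes, which are known to fall when the stress response rises, had median levels of 0.41, 1.03, 0.38 and 0.73 in the Kir2.1 arrays, against 0.42, 0.85, 0.95 and 0.79 in the controls. Their low arrays were those where the Msn2/4 targets were high, and vector control replicate 1 was below replicates 2 to 4 in 42 of 42 of these genes, against 41.2% of all genes.

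The iron regulon, the genes for iron uptake and sparing, had median levels of 1.80, -0.03, 2.16 and -0.40 in the Kir2.1 arrays, against 1.87, 0.01, -0.38 and -0.25 in the controls, over 23 genes of which 20 lay above background on at least 4 arrays. Kir2.1 replicates 1 and 3 and vector control replicate 1 were high for iron genes as for stress genes. Kir2.1 replicate 4 was the lowest array for the iron genes, yet lay above vector control replicates 2 to 4 for most stress targets. The part of the iron or ribosome biogenesis genes in the stress gene values was not tested.

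**Figure D4:**
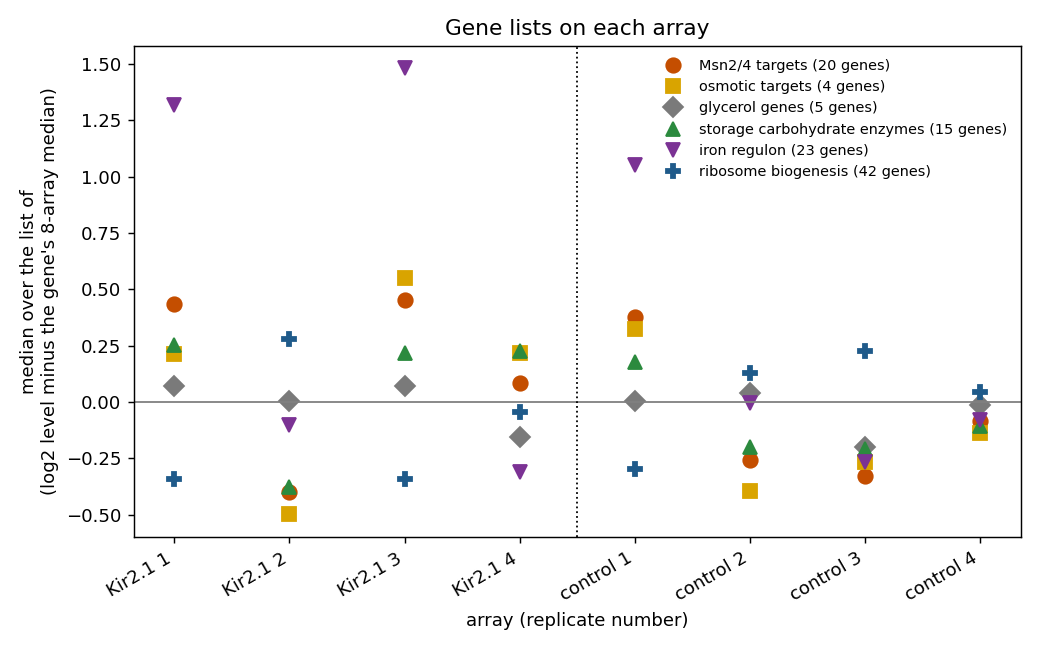
Median over each gene list of the log2 level minus the gene's own 8-array median (vertical axis) on the 8 arrays (horizontal axis, Kir2.1 left of vector control). Msn2/4 targets are highest on Kir2.1 replicates 1 and 3 and control replicate 1 (0.44, 0.45 and 0.38), with the iron regulon far above 0 and ribosome biogenesis below 0 on the same 3 arrays, while on Kir2.1 replicate 4 the iron regulon is at -0.31 and the Msn2/4 targets at 0.09.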

How the data were processed

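The deposited value table holds a standardized score per probe set, with mean 0 and standard deviation 1 over the 10715 probe sets of each array; how probes were summarized and background removed is not given in the sources used here. Per the labels' protocols, RNA was extracted with hot phenol and labelled with a 3'-primed kit. The zero of each array was set 0.005 array standard deviations below its lowest score, log2 was taken, and each array was centred on its median gene. The brightest probe set stood for a gene, by the platform annotation and RefSeq symbols (R64). The group test was that of limma 3.58.1, run under R 4.3.3 (lmFit, eBayes, group as the only term, two-sided, Benjamini-Hochberg over 5449 genes), tested on simulated data. Precision is limited by the number of arrays. The genes and lists were chosen with earlier results of these data known. Values on every array are given for the 3 genes of each role with the smallest p and the 4 with the largest spread, among those above background on at least 4 arrays; 2 genes were named per pathway list. Alternatives were the zero, no log, centring, quantile normalization, probe set means, a dim filter, a replicate block, array weights, no moderation and left-out arrays. No promoter or protein sequence was used here.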

Additional observations from a re-analysis of the deposited data

Results flagged for a closer look

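In each group of 4 arrays, the gap between the most extreme value and its neighbour was divided by the group's range and set against Dixon's 95% limit for 4 values. Of 68 such groups (34 genes in both groups), 7 exceeded it, where chance gives about 1 in 20 and 8.15% of the 10898 groups over all genes did. The genes share the same arrays, so these results are not independent of each other. In the Kir2.1 group the ratio was 0.896 for RTN2 and 0.846 for XBP1, with replicate 2 the lowest in both. For HOR7 replicate 2 was instead the highest Kir2.1 array (0.900), and vector control replicate 3 the lowest control (0.892), both within a range of 0.10 or less on the log2 scale. Vector control replicate 1 stood apart as the highest control for GRE3 (0.836), MSN2 (0.830) and HOT1 (0.919), the last within the background of every array.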

How the results depend on the processing

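Over 21 alternatives, 21 of the 34 genes kept the sign of their difference and 13 did not. Array weights, estimated from the same group fit, gave 18 stress genes called higher (1017 higher and 718 lower of all genes). The median difference over the 34 was then 0.44. With Kir2.1 replicate 2 and vector control replicate 1 both left out, 14 were called higher (326 higher and 182 lower of all genes), with a median of 0.45. No other alternative called a gene. Leaving out single arrays moved the median difference of the 34 genes between 0.09 and 0.32. Signs turned with no centring for CTT1 (-0.042), SOL4 (-0.044), TFS1 (-0.045), SPI1 (-0.00058), STL1 (-0.062), GRE2 (-0.012), HOG1 (-0.049) and HOT1 (-0.12), by the construction of that setting. HOT1 lay within the background, so its turns are listed without a direction being read from them. They turned with centring on the 75th percentile for HOT1 (-0.032), after quantile normalization for HOR7 (-0.024) and HOT1 (-0.045), without a log for HOG1 (-0.028 score units), and with array weights for PNC1 (0.12), GPP2 (0.093) and HOT1 (-0.018). In the setting without Kir2.1 replicate 2 and vector control replicate 1 they turned for PNC1 (0.16) and GPP2 (0.032). In that without Kir2.1 replicates 1 and 3 and vector control replicate 1 they turned for CTT1 (-0.060), SOL4 (-0.076), TFS1 (-0.27), GRE3 (-0.015), GND2 (-0.023) and SPI1 (-0.082). Over the single omissions the differences ran from -0.046 to 0.38 for CTT1, -0.045 to 0.33 for SOL4, -0.14 to 0.32 for TFS1, -0.060 to 0.089 for PNC1, -0.021 to 0.36 for GND2, -0.057 to 0.24 for SPI1, -0.037 to 0.32 for GRE2, -0.12 to 0.096 for GPP2 and -0.023 to 0.035 for HOT1. The cause of these turns was not tested beyond the settings themselves. Median differences have no counterpart without a log, where the scale is another. No label says that a replicate number marks a shared batch, and a pairing by number was not tested beyond the following values. Deviations of same-numbered arrays from their group means correlated at 0.81, 0.69, -0.66 and 0.39. The best match of Kir2.1 replicates 1 to 4 was vector control replicate 1, 3, 1 and 3. The replicate block called 0 stress genes and 0 genes in all. It lowered the SE of some genes, as for MSN4 (0.083 against 0.15), and raised that of others, as for HOR7 (0.061 against 0.051).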
